A study of Homo sapiens with 3 samples.

Results

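The replication-dependent histone genes are the clustered genes that supply the nucleosome's core proteins and the linker histone during DNA synthesis. They were taken here as every feature whose symbol starts with HIST1H, HIST2H, HIST3H or HIST4H and that had at least 1 UMI (unique molecular identifier, 1 captured transcript end) in the kept cells of any library. Of 71 such symbols, 63 had a UMI, out of 19912 features in all: 6 of 6 H1 genes, 16 of 17 H2A, 18 of 18 H2B, 11 of 15 H3 and 12 of 15 H4. The other 8 symbols had none.

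The cells were HCT116, a human colorectal carcinoma line, carrying a GFP-tagged histone H2B and grown in an organ-on-chip. The chip holds a top channel, where the cells stay, and a bottom channel, which invaded cells reach. All 3 groups share the line and the H2B-GFP label, were lifted with 0.25% trypsin and were sorted for GFP: cells of the bottom channel of a chip under peristaltic stretch for 6 days (stretched bottom), cells of the top channel of a chip stretched as long (stretched top), and cells of the top channel without stretch (not stretched top). Each group was 1 library made with a 10x Genomics 3′ kit, so no difference has a replicate check and no p-value is given. How many chips went into a library, and which H2B gene the label was built from, are not given in the sources used here. UMIs of the label could therefore be counted in an H2B gene, which was not tested.

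After the filter (at least 500 genes, at least 1000 UMIs, at most 20% mitochondrial UMIs), 1951 of 3513 stretched bottom, 20121 of 25169 stretched top and 17206 of 26106 not stretched top barcodes were kept, with 76641034, 210814252 and 212503735 UMIs. The median kept cell held 40387 UMIs in the stretched bottom library, against 9384 in stretched top and 10964 in not stretched top cells. The epithelial marker EPCAM was at 501, 389 and 386 CPM (UMIs per 1000000 UMIs of a library) in the same order. Of the 12 epithelial markers at 1 CPM or more, 0 were at least 1.5-fold higher and 4 lower in stretched bottom cells than in either top library: CDH1, CLDN3, ELF3 and VIL1, with VIL1 at 1.27 CPM against 5.18 and 7.14. Between 6 and 88 kept barcodes were shared by any pair of libraries.

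In dividing cells these genes are switched on together as DNA replication starts, and most of their messenger RNAs end not in a poly(A) tail but in a short stem-loop that SLBP binds. When replication stops, the stem-loop messages are degraded. Some members also make longer, polyadenylated messages, which cells outside S phase can hold. The 3′ kit primes on poly(A), so the UMIs count only the captured part of each gene's transcripts, and a ratio between libraries or cells compares that part. Since 1 UMI is 1 transcript end, no division by length was made, and a gene's share below is a share of UMIs.

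The stem-loop is shown first because the members differ in what lies beyond it. In the transcript models of GENCODE release 29 (GRCh38), 29 members held a 16-base stem-loop, given in capitals with 5 bases on each side, on the gene's own strand.
HIST1H2AI: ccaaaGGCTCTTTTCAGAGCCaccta
HIST1H2AC: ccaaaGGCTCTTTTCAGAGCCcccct
HIST1H2BD: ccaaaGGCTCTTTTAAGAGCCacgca
HIST1H3E: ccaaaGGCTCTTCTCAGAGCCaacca
HIST1H2AG: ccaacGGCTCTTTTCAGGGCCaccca
HIST1H4E: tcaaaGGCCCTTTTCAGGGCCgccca
HIST2H4B: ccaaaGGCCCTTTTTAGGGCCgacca
These lie at chr6:27808642-27808667 (+), chr6:26124664-26124689 (+), chr6:26158582-26158607 (+), chr6:26225591-26225616 (+), chr6:27133510-27133535 (+), chr6:26204996-26205021 (+) and chr1:149860764-149860789 (-). The word of HIST1H2AI and HIST1H2AC was in 15 members, and that of HIST1H2BD in 4. The words of HIST1H4E and HIST2H4B, which share a stem of other base pairs and differ in the loop, were in 5 and 3 members. All of these were H4 genes. HIST1H3E and HIST1H2AG each had a loop or stem found in no other member. The transcript model ran 39 bases past the stem-loop in HIST1H2AI and in HIST1H2BD, against 1128 in HIST1H2AC, 1862 in HIST1H3E and 1761 in HIST1H2AG.

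The summed level of the 63 genes was 1084 CPM (95% Poisson interval 1077 to 1091) in stretched bottom cells, 539 CPM (536 to 543) in stretched top and 489 CPM (486 to 492) in not stretched top cells. Intervals here and below cover counting error only, not differences between chips. The stretched bottom cells thus held 2.01 times (1.99 to 2.03) the stretched top level and 2.22 times the not stretched top level. All 5 families were higher in the stretched bottom library than in either top library. H3, one of the nucleosome's core proteins, differed most, at 51.3 CPM against 17.3 in stretched top and 15.1 in not stretched top cells. H4 summed to 650 CPM, against 290 and 243. H2B summed to 75.2 CPM against 38.2 and 35.3, and H2A to 166 CPM against 102 and 94.9. The linker histones H1, which bind the DNA between nucleosomes, differed least, at 141 CPM against 91.6 and 99.9. These sums are relative to all UMIs of a library, and the stretched bottom cells were the deepest. In cells of like depth, 20000 to 40000 UMIs, the H4 sum was 427 CPM in stretched bottom, 468 in stretched top and 372 in not stretched top cells, while H3 stood at 47.7, 21.2 and 18.0 CPM.

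**Figure D1:**
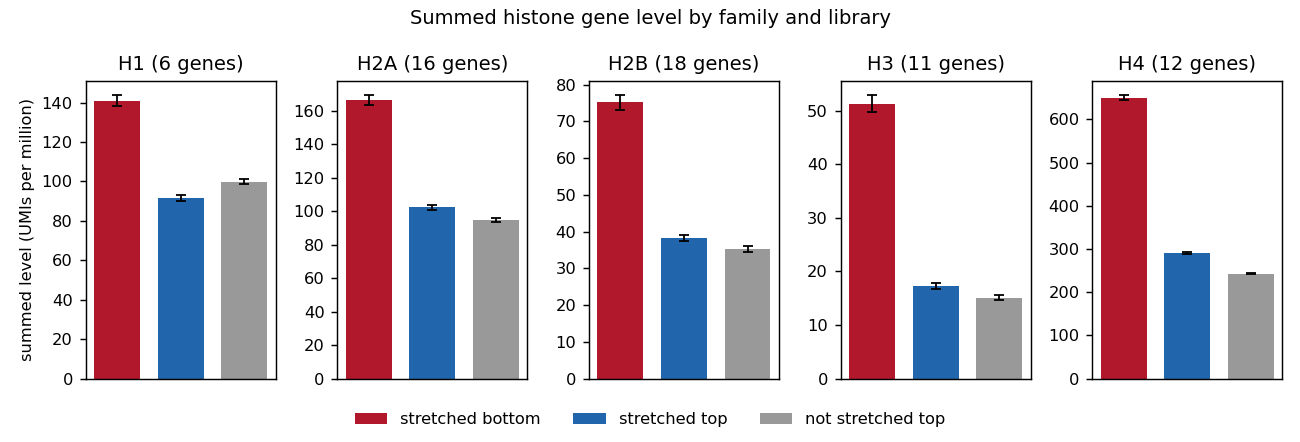
Summed level of each histone family (y axis, CPM; each panel has its own scale from 0) in the stretched bottom, stretched top and not stretched top libraries; error bars are 95% Poisson intervals of the counts. The stretched bottom bar is the highest in every panel, from 141 CPM against 91.6 and 99.9 for H1 to 51.3 CPM against 17.3 and 15.1 for H3.

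HIST1H4C had the most UMIs in all 3 libraries. This gene, one of the many genes that encode the same H4 protein, at chr6:26103876-26104310, gave 57.8% of all histone UMIs of the stretched bottom library, 52.4% in stretched top and 48.5% in not stretched top cells. Without it the histone sum was still 1.78 times higher in the stretched bottom than in the stretched top library, and H4 was 3.22 times higher. Of the 63 genes, 40 reached 1 CPM in at least 1 library, 15 reached 10 CPM, and 8 had at most 3 UMIs in every library.

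The first comparison asks how invaded cells differ from cells that stayed in the top channel of the stretched model. Of the 40 histone genes at 1 CPM or more in either of this pair, 31 were higher by 1.5-fold or more in the stretched bottom library and 0 were at least 1.5-fold lower, on the scale of CPM with 0.1 added. Over all 12866 genes at that minimum, 9.05% were higher and 17.9% lower. The median log2 ratio was 1.43 over the 40 histone genes and -0.07 over all genes. The minimum itself shapes this count: 10 of the 40 reached 1 CPM through the stretched bottom library alone and were all higher. Over all genes, 242 of the 295 that did so were higher. Of the 30 histone genes that reached it in the stretched top library, 21 were higher and 0 lower, with a median log2 ratio of 1.10. Over all 12571 genes that reached it there, 923 were higher and 2299 lower. Among the 23 histone genes under 1 CPM in both libraries, 6 were past the fold upward and 5 downward.

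Only 2 H1 genes reached the minimum, HIST1H1C and HIST1H1E, which encode the linker histones H1.2 and H1.4. HIST1H1E was at 49.9 CPM in the stretched bottom library, 24.0 in stretched top and 31.4 in not stretched top cells. That was 2.08-fold (2.00 to 2.17) higher than in stretched top cells. HIST1H1C was at 90.4 CPM in the stretched bottom library, 66.6 in stretched top and 66.8 in not stretched top cells. Its 1.36-fold (1.32 to 1.40) difference did not reach 1.5-fold.

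Of 12 H2A genes at the minimum, 9 were higher. HIST1H2AJ was at 27.1 CPM in stretched bottom cells, against 5.73 in stretched top and 5.87 in not stretched top cells, a 4.73-fold (4.40 to 5.08) difference from stretched top. HIST2H2AA4 was at 6.30, 1.31 and 1.31 CPM in the same order. Its transcript shares 97.1% of its 50-base words with HIST2H2AA3, which had no UMI, so reads of this pair cannot be told apart. HIST1H2AJ likewise shares 83.7% with HIST1H2AI. HIST3H2A, the H2A gene with the most UMIs over the 3 libraries, lies on chromosome 1 outside the large cluster and was at 27.3 CPM in stretched bottom cells, 35.7 in stretched top and 32.5 in not stretched top cells. This 0.766-fold (0.730 to 0.804) ratio did not reach 1.5-fold. HIST2H2AC was at 16.1, 16.3 and 16.4 CPM, a ratio of 0.993 (0.930 to 1.06) to stretched top. HIST1H2AC was at 35.7, 24.5 and 17.8 CPM, 1.46-fold (1.39 to 1.52) higher than in stretched top and 2.01-fold higher than in not stretched top cells.

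Of 11 H2B genes, 8 were higher. HIST1H2BN, the most abundant, was at 18.8 CPM in stretched bottom, 9.48 in stretched top and 9.97 in not stretched top cells, 1.99-fold above stretched top. HIST2H2BF was at 7.63, 2.22 and 2.30 CPM, and HIST1H2BC at 13.0, 5.66 and 5.58 CPM. HIST1H2BE was at 3.37, 3.36 and 3.04 CPM, a ratio of 1.00 (0.866 to 1.16) to stretched top. HIST1H2BN was the highest H2B gene in all 3 libraries, and none reached 20 CPM.

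Among 5 H3 genes, 3 were higher. HIST1H3B was at 19.5 CPM in stretched bottom cells, against 5.82 in stretched top and 5.11 in not stretched top cells, a 3.36-fold (3.11 to 3.62) difference from stretched top. HIST1H3J was at 20.6, 4.73 and 4.26 CPM, 4.35-fold (4.02 to 4.72) above stretched top. HIST1H3J (chr6:27890382-27893106) overlaps HIST1H2AM (chr6:27892757-27893149) on the same strand, and HIST1H2AM shares 86.3% of its 50-base words with it. The levels of these 2 genes are therefore uncertain. HIST1H3H at 5.85, 3.98 and 2.52 CPM was 1.47-fold above stretched top and 2.32-fold above not stretched top.

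All 10 H4 genes at the minimum were higher in stretched bottom than in stretched top cells, but 6 of them reached the minimum through the stretched bottom library alone. The 4 that reached it in stretched top cells were HIST1H4C, HIST1H4D, HIST1H4E and HIST1H4J. HIST1H4C was at 626 CPM in stretched bottom, 282 in stretched top and 237 in not stretched top cells, 2.22-fold (2.19 to 2.24) above stretched top and 2.64-fold above not stretched top. In cells of 20000 to 40000 UMIs it was at 402, 459 and 365 CPM, below stretched top. HIST1H4A had the largest ratio of the 40 genes at the minimum, 7.82-fold (5.93 to 10.4) above stretched top, at 2.60 CPM against 0.332 and 0.353. It rested on 199 UMIs in the stretched bottom, 70 in stretched top and 75 in not stretched top cells. HIST1H4J was at 5.49, 1.78 and 1.27 CPM and shares 81.2% of its words with HIST1H4K.

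Set against not stretched top cells, which share neither channel nor stretch with the stretched bottom cells, 33 of 40 genes were higher and 0 lower, where 7.77% of all genes were higher and 29.6% lower. Median log2 ratios were 1.34 for the histone genes and -0.27 for all genes. Of the 29 histone genes that reached the minimum in not stretched top cells, 23 were higher and 0 lower, with a median log2 ratio of 1.21, and 10 of the 11 that reached it through the stretched bottom library alone were higher. Over all genes, 798 were higher and 3870 lower of the 12804 that reached it in not stretched top cells. Of the 252 that reached it through the stretched bottom library alone, 216 were higher. The histone genes called higher were 1 of 2 H1, 10 of 12 H2A, 9 of 11 H2B, 4 of 5 H3 and 9 of 10 H4 genes. H3 was 3.39-fold, H4 2.67-fold, H2B 2.13-fold, H2A 1.76-fold and H1 1.41-fold higher. The stretched bottom library is common to both comparisons.

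**Figure D2:**
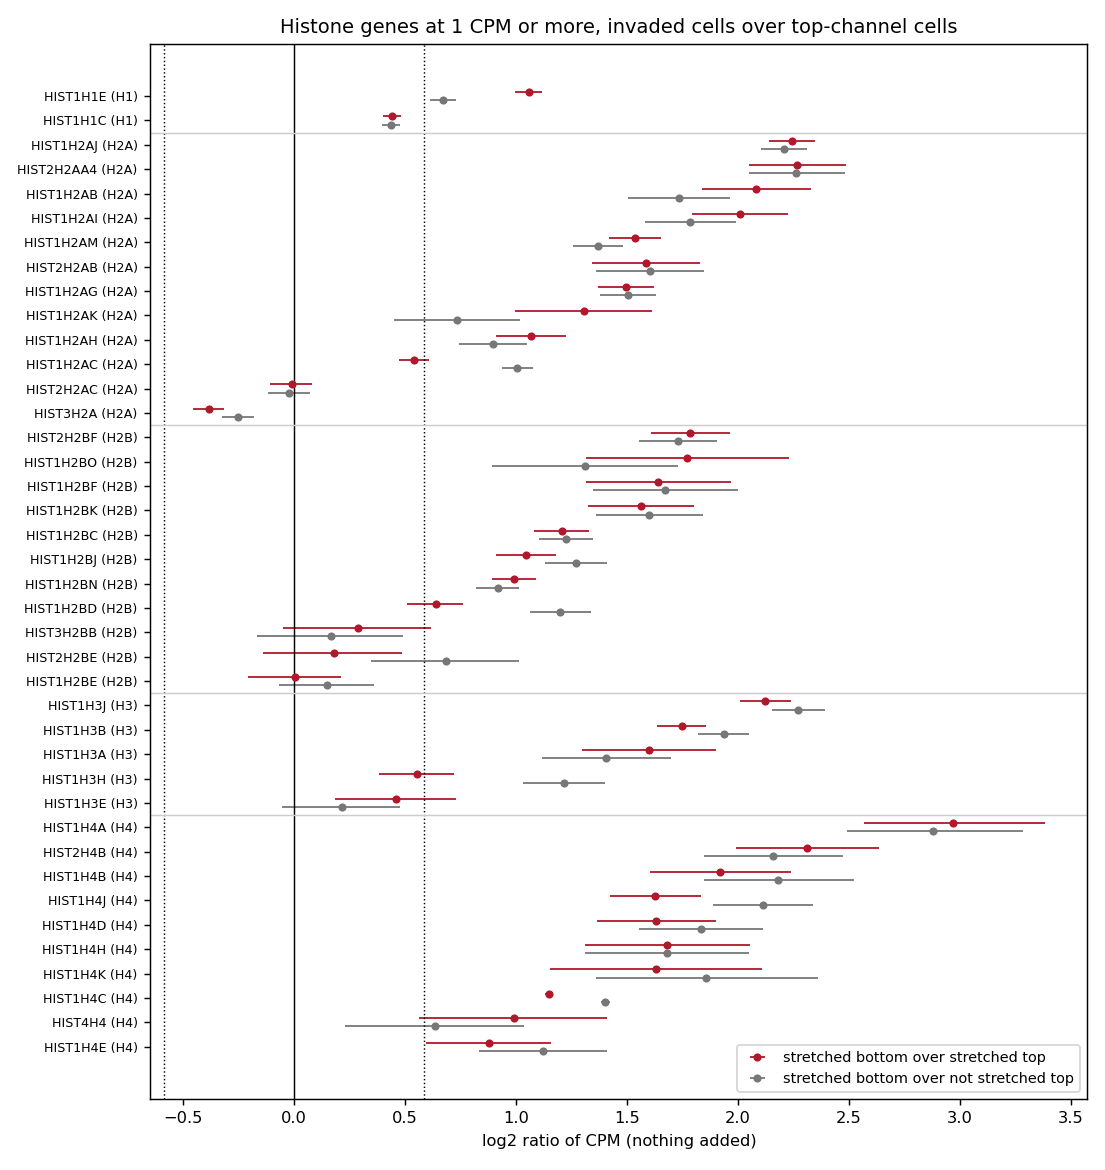
Log2 ratio of CPM (x axis, nothing added) for the 40 histone genes at 1 CPM or more, by family: stretched bottom over stretched top in red and over not stretched top in grey, with 95% counting intervals and dotted lines at 1.5-fold. HIST1H4A lies farthest right at 7.82-fold over stretched top, and HIST3H2A is farthest left at 0.766-fold.

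Stretch itself, compared within the top channel, went with small differences. Of 31 histone genes at the minimum, 1 was at least 1.5-fold higher in stretched top than in not stretched top cells and 0 were lower, where 0.374% of all genes were higher and 3.09% lower. The summed level was 1.10-fold (1.09 to 1.11) higher in stretched top cells, and 1.02-fold higher without HIST1H4C. The gene past the fold was HIST1H3H, at 3.98 CPM in stretched top against 2.52 in not stretched top cells, 1.58-fold (1.42 to 1.77) higher, on 840 and 535 UMIs. HIST1H2BD followed at 6.72 against 4.55 CPM (1.48-fold) and HIST2H2BE at 1.39 against 0.984 CPM (1.42-fold). HIST1H2AC was at 24.5 against 17.8 CPM, 1.38-fold higher. The smallest ratios were 0.674 (0.557 to 0.815) for HIST1H2AK, 0.765 (0.737 to 0.793) for HIST1H1E and 0.786 for HIST1H2AB. H4 as a family was 1.19-fold higher in stretched top cells. H1 was at 0.917 of the not stretched top level (0.899 to 0.935), a log2 ratio of -0.13 that turned to 0.05 under TMM scaling, a trimmed mean over genes, and to 0.07 under median of ratios scaling. The median log2 ratio over all genes was -0.18 in this comparison and -0.01 under TMM scaling.

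The cell cycle make-up of the libraries moved with these differences. Phases were called from lists of S and G2/M genes that hold no histone gene, on cells thinned to 3000 UMIs each. G1 calls made up 21.24% of stretched bottom, 47.73% of stretched top and 48.77% of not stretched top cells. S calls made up 21.12%, 15.27% and 17.12%, and G2/M calls 57.64%, 37.01% and 34.10%. Within each phase the histone sum was still higher in stretched bottom than in stretched top cells, 1.54-fold in G1, 1.76-fold in S and 1.73-fold in G2/M. Of the 40 genes, 30 were at least 1.5-fold higher within G1 cells, 31 within S cells and 33 within G2/M cells, and 0 were lower in any phase. Over all genes, 11.1% were higher and 15.5% lower within G1, 6.95% and 18.4% within S, and 6.31% and 17.3% within G2/M cells. Of the 30 histone genes at the minimum in stretched top cells, 21, 21 and 23 were higher within G1, S and G2/M. Over all 12571 genes at that minimum, 1209, 696 and 606 were higher and 1981, 2350 and 2227 lower. HIST1H4C was 1.56-fold, 1.76-fold and 1.78-fold higher in G1, S and G2/M cells, and HIST1H3J 5.12-fold, 3.81-fold and 3.65-fold. HIST1H1E was 1.08-fold in G1, 1.61-fold in S and 1.78-fold in G2/M cells. HIST3H2A stayed below 1 in each phase, at 0.786, 0.847 and 0.802. For stretched top over not stretched top cells, the histone sum was at ratios of 1.18 in G1, 0.949 (0.932 to 0.966) in S and 1.14 in G2/M cells.

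UMIs per cell moved with the libraries too, and here the families parted. In cells of 20000 to 40000 UMIs, of which there were 400 stretched bottom, 1462 stretched top and 2389 not stretched top cells, H4 and H3 stood as given above. H1 was at 111, 103 and 121 CPM in those cells. H2B was at 74.8, 39.1 and 37.6 CPM, and H2A at 147, 105 and 107 CPM. H3, H2B and H2A were higher in stretched bottom cells in every range of UMIs that held cells of all 3 libraries, while H4 and H1 were not. At 10000 to 20000 UMIs, H4 was at 163 CPM in stretched bottom against 336 in stretched top and 226 in not stretched top cells. Over all cells of 20000 to 60000 UMIs, 31 of 42 histone genes were at least 1.5-fold higher in stretched bottom than in stretched top cells and 2 lower (HIST1H1B and HIST1H1D), where 7.08% of all genes were higher and 16.1% lower. Of the 34 histone genes that reached the minimum in stretched top cells, 23 were higher, against 667 higher and 2083 lower of all 12608 genes that did so. The log2 ratio of the histone sum in these cells was 0.46 (under 1.5-fold), against 1.01 over all kept cells. The part of cell depth in the H4 difference was not tested further.

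**Figure D3:**
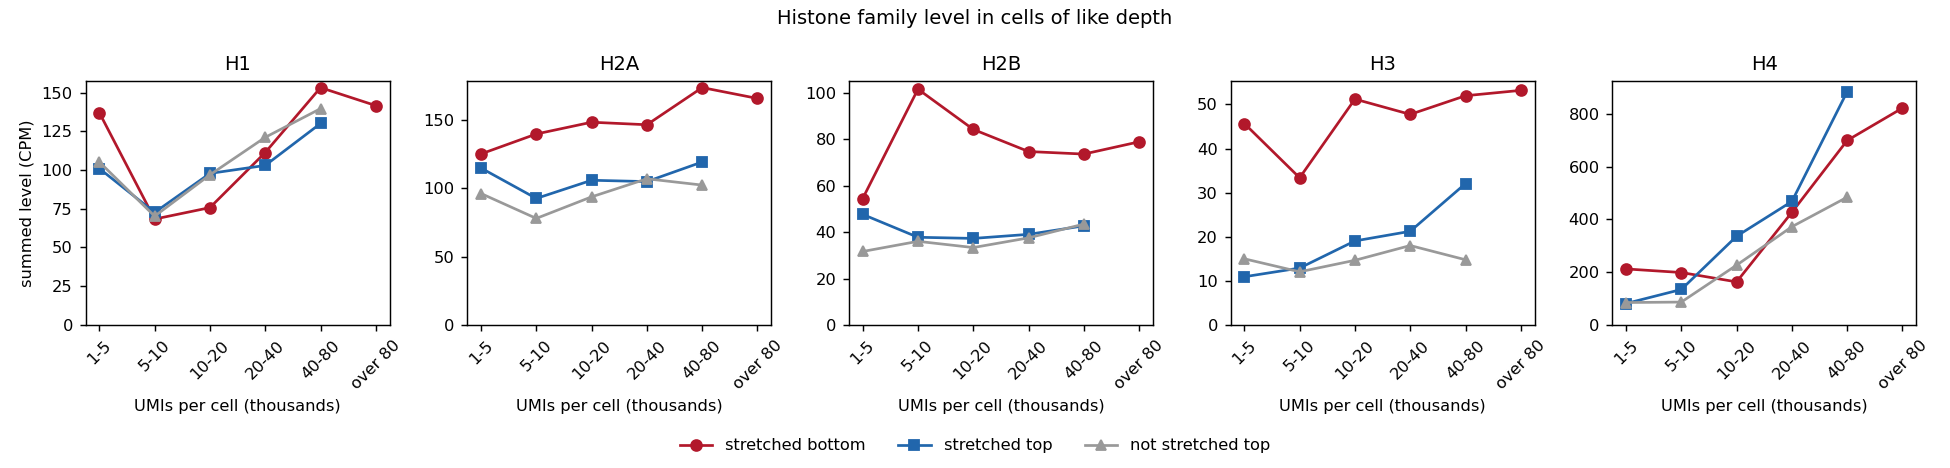
Summed CPM (y axis, from 0) of the H1, H2A, H2B, H3 and H4 families in cells grouped by their UMIs (x axis, in units of 1000 per cell), for the 3 libraries; the point of 40000 to 80000 UMIs of the stretched top library is 12 cells. The stretched bottom line lies above both top lines at every shared point for H2A, H2B and H3, whereas for H4 it lies below stretched top from 10000 to 80000 UMIs, for instance 427 against 468 CPM at 20000 to 40000.

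Per cell, after thinning to 3000 UMIs, 78.0% of stretched bottom, 60.8% of stretched top and 55.5% of not stretched top cells held at least 1 histone UMI. HIST1H4C was found in 53.7%, 33.8% and 29.5% of them. No cell type lacking histone genes was set apart in these libraries, so none gives a background share. Cells with at least 3 HIST1H4C UMIs at that depth also held more HIST1H1E, at 91.5 CPM against 18.5 CPM in cells with 0 among stretched bottom cells, 70.4 against 11.3 in the stretched top and 95.04 against 14.0 in the not stretched top library. HIST2H2AC showed the same pattern, at 31.6 against 6.31, 45.8 against 7.03 and 57.8 against 6.66 CPM. HIST1H2AC did not, at 30.8 against 29.9, 21.9 against 29.7 and 20.5 against 21.0 CPM.

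How each gene followed S phase was then compared within each library, S over G1 cells. Over G1 cells, the histone sum in S cells was 2.60-fold higher in stretched bottom, 2.27-fold in stretched top and 2.84-fold in not stretched top. In G2/M cells it was 2.87-fold, 2.55-fold and 2.66-fold higher than in G1. G2/M cells were thus above S cells in the stretched bottom and stretched top libraries and below them in not stretched top. S cells were also deeper, with a median of 43140 UMIs against 37243 in G1 in the stretched bottom, 10991 against 7908 in the stretched top and 13891 against 9436 in the not stretched top library. In stretched bottom cells 22 of 42 genes were at least 1.5-fold higher in S and 4 lower, where 10.7% and 13.6% of all genes were. In stretched top cells it was 18 higher and 5 lower of 31, where 9.85% and 5.71% of all genes were. In not stretched top cells it was 23 higher and 3 lower of 35, where 11.2% and 8.33% were. Of 31 genes at the minimum in all 3 libraries, 14 were higher in S in all 3 and 3 were lower in all 3. Calls shared by all 3 libraries were not counted over all genes, so the 14 and 3 have no share to be set against. Genes entered these counts at 1 CPM or more in either phase. Some did so through S cells alone, such as HIST1H2AH in both top libraries, and were not counted apart.

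The families differed in this respect. H4 was 4.83-fold higher in S than in G1 cells of the stretched bottom library, 4.47-fold in the stretched top and 5.25-fold in the not stretched top library. H3 was 1.91-fold, 1.85-fold and 2.08-fold higher, H1 1.63-fold, 1.64-fold and 2.24-fold, and H2A 1.57-fold, 1.21-fold and 1.74-fold. H2B did not reach 1.5-fold either way, at 1.08 (0.986 to 1.18), 0.831 (0.774 to 0.891) and 0.999 (0.935 to 1.07).

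Within H2A the genes covered nearly the whole range. HIST1H2AH was at 9.53 CPM in S against 1.12 in G1 for stretched bottom cells, 5.76 against 0.517 in the stretched top and 7.19 against 0.700 in the not stretched top library, which is 8.54-fold, 11.2-fold and 10.3-fold. HIST1H2AM was 6.68-fold, 7.84-fold and 12.7-fold higher in S, and HIST1H2AJ 5.17-fold, 5.40-fold and 8.86-fold. HIST1H2AC went the opposite way, at 29.9 CPM in S against 46.7 in G1 cells of the stretched bottom, 14.1 against 33.6 in the stretched top and 12.5 against 23.3 in the not stretched top library. HIST3H2A was at ratios of 0.763, 0.708 and 0.910, short of 1.5-fold. HIST1H4C was at 666 CPM in S against 125 in G1 for stretched bottom cells, 378 against 80.5 in the stretched top and 373 against 67.4 in the not stretched top library. HIST1H1E was 5.68-fold, 3.83-fold and 4.49-fold higher in S, whereas HIST1H1C was 1.13-fold, 1.28-fold and 1.70-fold higher. The lowest ratios were those of HIST1H3E, 0.392, 0.342 and 0.350, and HIST1H2BD, 0.518, 0.354 and 0.435. From CPM of thinned cells the log2 ratio of HIST1H3E was 0.0072 in the stretched bottom library, against -1.30 over all UMIs, while it stayed below 0 in both top libraries.

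Grouped by their annotated 3′ ends, the genes differed in this ratio. A member was said to have an extended end where a transcript model ran past the stem-loop, or held none, and carried the poly(A) signal AATAAA (or its variant, ATTAAA) in its last 50 bases; this definition was chosen after the ratios were seen, so the counts are a description. Such an end was annotated in 20 members and not in 43. Of the 31 genes at the minimum in S or G1 cells of all 3 libraries, 17 had no extended end annotated. Many of these have models that hold no stem-loop, such as HIST1H3B (411 bases) and HIST2H2AC (390 bases). For those, a missing annotation and a short 3′ end cannot be told apart. HIST3H2BB, whose model runs 1917 bases past its stem-loop without that signal near its end, is among the 17. HIST2H2AA4, at 35 bases past, counts as extended. Of these 17, 12 were at least 1.5-fold higher in S in the stretched bottom library, 14 in stretched top and 15 in not stretched top cells, with 0 lower in any and median log2 ratios of 2.03, 2.21 and 2.26. Of the 14 with an extended end, 2, 4 and 4 were higher and 3, 5 and 3 lower, with median log2 ratios of -0.10, -0.12 and 0.04. HIST1H2AC, HIST1H2BD and HIST1H3E, the genes lower in S in all 3 libraries and shown above with their stem-loops, are all in this class. HIST1H2BD is in it through a second, spliced model that holds no stem-loop. HIST1H2AG is in it too and was 2.37-fold, 2.75-fold and 3.99-fold higher in S. Between libraries, both classes were higher in stretched bottom than in stretched top cells: 21 of 24 genes without and 10 of 16 with an extended end, at median log2 ratios of 1.51 and 0.91. Counting those at the minimum in stretched top cells, they were 13 of 16 and 8 of 14, at medians of 1.52 and 0.73.

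**Figure D4:**
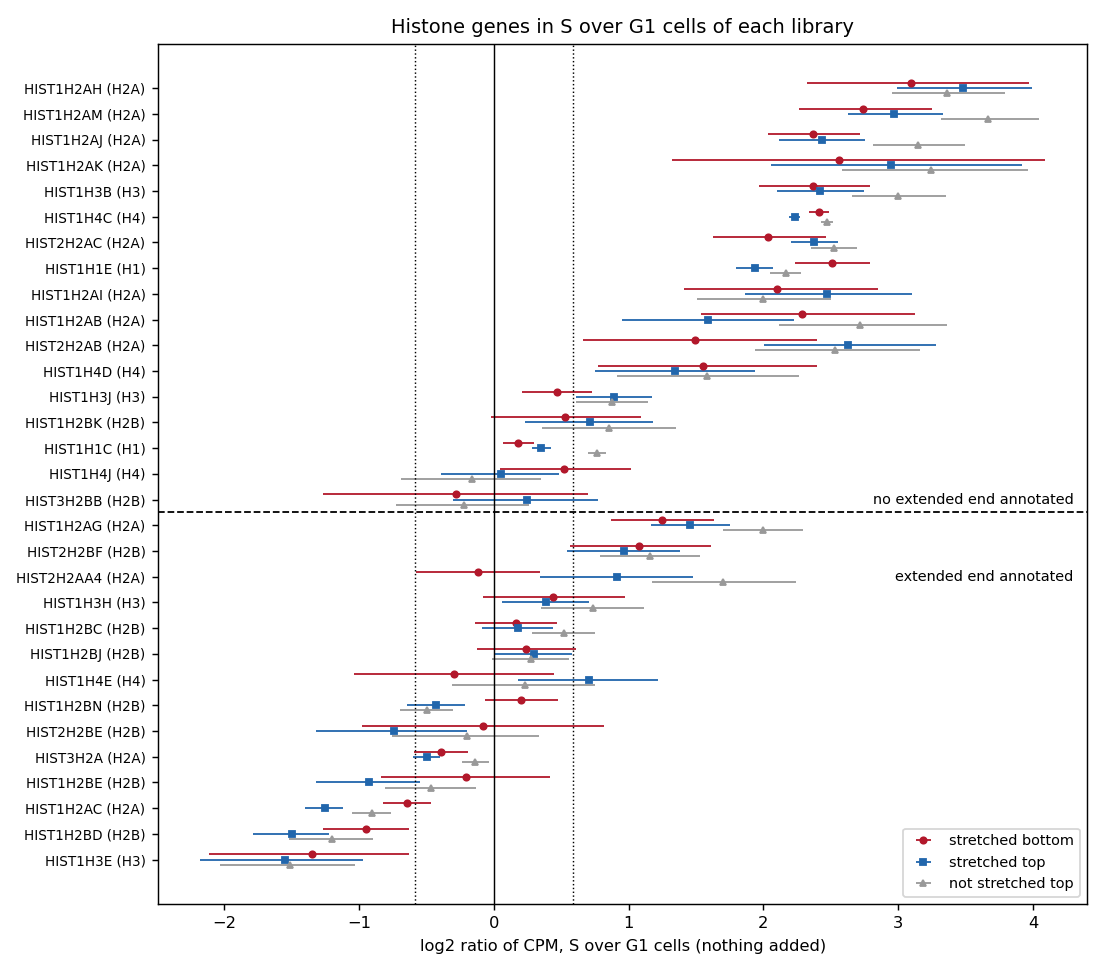
Log2 ratio of CPM in S over G1 cells (x axis, nothing added) for 31 histone genes, with 95% counting intervals. Each gene was at 1 CPM or more in S or G1 cells of each of the 3 libraries. Dotted lines mark 1.5-fold, and the dashed line separates genes without (above) and with (below) an extended annotated 3′ end. HIST1H2AH is at the top with 8.54-fold, 11.2-fold and 10.3-fold, and HIST1H3E at the bottom with 0.392, 0.342 and 0.350.

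The families differed in the words that their promoters carried. RefSeq (GRCh38.p14) gave the 250 bases before the start for 53 of the 63 members, and HIST1H4C was not among them. The TATA box word TATAAA was in 35 of 53 (66.0%), against 11.1% of all 27305 promoters, on either strand. CCAAT was in 44 (83.0%) against 33.0%, in all 43 H1, H2A, H2B and H3 promoters and in 1 of 10 for H4. The octamer ATTTGCAT, bound by POU2F1 at H2B promoters, was in 20 (37.7%) against 1.66%: 11 of 15 H2A and 9 of 13 H2B promoters and no other. AAACACA, known as the H1 box, was in all 6 H1 promoters and no other member, against 4.95% of all promoters. GGTCCG, part of the H4 element read by HINFP, was in all 10 H4 promoters and in 3 others, against 9.33%. Neighbouring H2A and H2B genes can share most of these bases, so a word in such a region can count in both families. HIST1H2AG with HIST1H2BJ, and HIST2H2AC with HIST2H2BE, are such pairs. The words above are marked in capitals in 1 promoter each of H1, H2A and H4, read 5′ to 3′ on the gene's strand.
HIST1H1E: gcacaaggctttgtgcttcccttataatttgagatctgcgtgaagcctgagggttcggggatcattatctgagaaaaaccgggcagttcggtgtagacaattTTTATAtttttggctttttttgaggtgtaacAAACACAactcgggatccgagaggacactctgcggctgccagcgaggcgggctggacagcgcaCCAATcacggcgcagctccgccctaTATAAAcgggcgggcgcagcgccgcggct
HIST1H2AJ: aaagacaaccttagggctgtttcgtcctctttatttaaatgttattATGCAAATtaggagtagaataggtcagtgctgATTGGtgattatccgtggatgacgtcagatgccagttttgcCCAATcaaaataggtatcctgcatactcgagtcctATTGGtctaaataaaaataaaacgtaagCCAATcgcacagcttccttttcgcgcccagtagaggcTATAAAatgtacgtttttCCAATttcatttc
HIST1H4E: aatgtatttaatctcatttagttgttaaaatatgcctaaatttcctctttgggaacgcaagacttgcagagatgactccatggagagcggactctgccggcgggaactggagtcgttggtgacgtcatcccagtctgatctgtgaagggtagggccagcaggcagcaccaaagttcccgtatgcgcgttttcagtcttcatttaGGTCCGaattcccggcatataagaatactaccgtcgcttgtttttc
They lie at chr6:26156079-26156328 (+), chr6:27814778-27815027 (-) and chr6:26204360-26204609 (+). A word on the other strand is in capitals as its reverse complement.

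HIST2H2AC and HIST2H2BE start back to back on chromosome 1 and share 1 promoter region, which is shown because the 2 genes differed in S phase. It is given on the strand of HIST2H2AC, with the same words in capitals; ATTGG and GGTCCG overlap in it.
HIST2H2AC: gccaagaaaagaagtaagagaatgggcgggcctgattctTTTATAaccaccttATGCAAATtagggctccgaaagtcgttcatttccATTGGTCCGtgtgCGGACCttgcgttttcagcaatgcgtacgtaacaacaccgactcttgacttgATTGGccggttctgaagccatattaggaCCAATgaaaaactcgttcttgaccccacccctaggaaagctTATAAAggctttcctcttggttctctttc
This is chr1:149886668-149886917 (+). HIST2H2AC, with no extended end annotated, was 4.09-fold, 5.19-fold and 5.75-fold higher in S than in G1 cells of the stretched bottom, stretched top and not stretched top libraries. HIST2H2BE, whose transcript model runs 1729 bases past its stem-loop, was at ratios of 0.944, 0.598 and 0.872. The words found are matches of letters and not shown to be sites.

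A small set of top-channel cells carried histone genes that were near zero elsewhere. Cells with at least 10 UMIs of APOA1, an apolipoprotein of intestine and liver, were 0 of 1951 stretched bottom cells, 338 of 20121 stretched top cells (1.68%) and 317 of 17206 not stretched top cells (1.84%); this limit was chosen after the data were seen. A count of 0 allows a share of up to 0.154% of stretched bottom cells. In both top libraries 8 histone genes were at least 50 times higher in these cells than in the other cells: HIST1H1B, HIST1H1D, HIST1H2AE, HIST1H2AL, HIST1H2BG, HIST1H2BH, HIST1H3F and HIST1H3G. Together they had 275 of their 348 UMIs in the APOA1 cells of the stretched top library (79.0%) and 385 of 540 in those of the not stretched top library (71.3%). The whole stretched bottom library held 39 of their UMIs. Their sum was 0.509 CPM there, against 0.355 in the other cells of the stretched top and 0.750 in those of the not stretched top library. In stretched bottom cells, HIST1H1D had 19 UMIs in 3 cells and HIST1H1B 10 UMIs in 2, and 2 cells held both. HIST1H1D, which encodes the linker histone H1.3, was at 17.7 CPM in APOA1 cells against 0.117 in other cells of the stretched top library and 24.2 against 0.223 in the not stretched top library. HIST1H1B, which encodes H1.5, was at 14.9 against 0.0583 and 21.0 against 0.271 CPM, ratios of 255 (138 to 516) and 77.5 (56.1 to 108). HIST1H3F had 7 UMIs in APOA1 cells and 2 in other cells of each library, a ratio of 141 (26.9 to 1393) in the stretched top library. HIST1H2BI, with 2 UMIs in APOA1 cells of the stretched top and 1 in those of the not stretched top library, had 0 in the other cells of both and is given no ratio.

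The 8 genes lie in 2 stretches of chromosome 6, but not all of their neighbours took part. HIST1H2BG, HIST1H2AE, HIST1H1D, HIST1H3F, HIST1H2BH and HIST1H3G lie between chr6:26215159 and chr6:26271815, and HIST1H2AL and HIST1H1B between chr6:27865355 and chr6:27867529. HIST1H3E (chr6:26224199-26227473), inside the first stretch, was at 1.57 CPM in APOA1 cells against 1.61 in other cells of the stretched top library and 2.88 against 1.88 in the not stretched top library. HIST1H1C was at 0.995 and 0.937 of its level in other cells, HIST1H1E at 1.06 and 1.05, and HIST1H4C at 1.41 and 1.33. The next ratios after the 8, among genes with at least 10 UMIs in the APOA1 cells, were 6.998 for HIST1H4H in the stretched top and 6.44 for HIST4H4 in the not stretched top library. The APOA1 cells were deeper, with a median of 13915 UMIs against 9324 and 17215 against 10873. With these cells left out, the histone sums were 535 CPM in stretched top and 484 CPM in not stretched top cells.

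**Figure D5:**
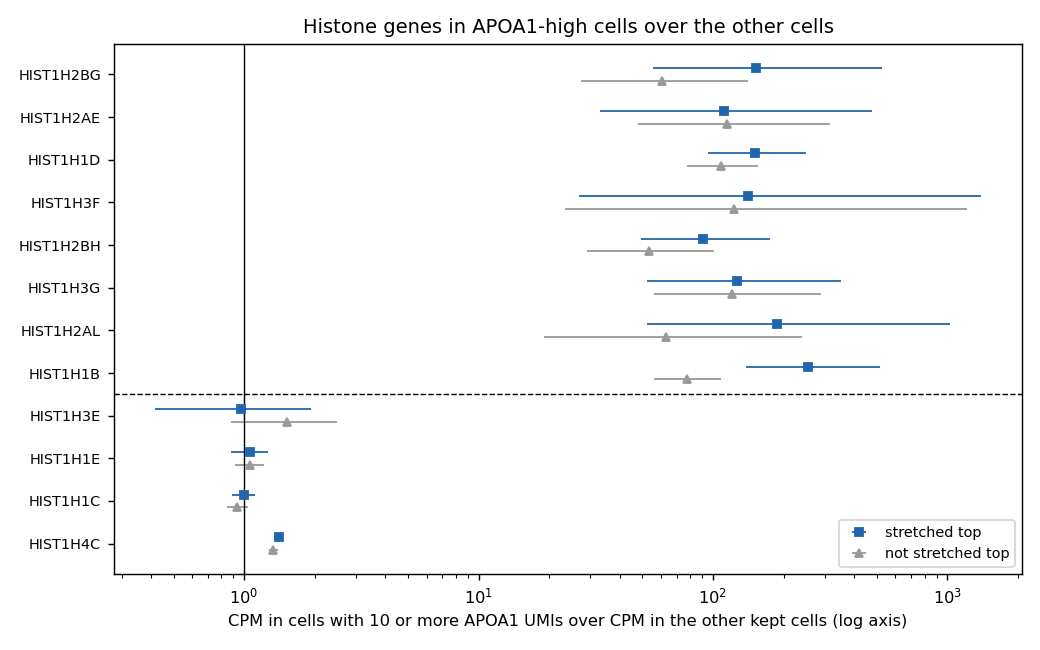
Ratio of CPM in cells with 10 or more APOA1 UMIs to CPM in the other kept cells (x axis, log scale) for the 8 histone genes chosen for this ratio and, under the dashed line, 4 others, in the stretched top and not stretched top libraries; bars are 95% counting intervals. HIST1H1B reaches 255 and 77.5, whereas HIST1H1C, HIST1H1E, HIST1H3E and HIST1H4C lie between 0.937 and 1.53.

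The genes that process, transcribe and chaperone histones were counted on the same scale, on which 9.05% of all genes were higher and 17.9% lower in stretched bottom than in stretched top cells. Of 21 measured genes of histone messenger RNA processing, 4 were at least 1.5-fold higher and 1 lower in stretched bottom than in stretched top cells. SLBP, the stem-loop binding protein, was at 143 CPM in stretched bottom, 105 in stretched top and 113 in not stretched top cells, and was 2.56-fold, 2.56-fold and 2.68-fold higher in S than in G1 cells. SNRPG, a shared Sm-ring protein, was at 798, 439 and 337 CPM, and LSM11, of the U7 particle that cuts histone messages, at 2.49, 4.36 and 4.73 CPM. Of 15 genes of histone transcription, 3 were higher and 3 lower. NPAT, the coactivator at histone loci, was at 18.6, 16.7 and 18.7 CPM. CCNE2, a cyclin that activates its kinase, was at 15.5, 7.59 and 8.96 CPM, and the S-phase factor E2F1 at 7.42, 12.3 and 15.4 CPM. Of 27 chaperone genes, 3 were higher and 0 lower, led by the histone acetyltransferase HAT1 at 132, 76.7 and 74.7 CPM.

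Histone variants, whose genes lie outside the clusters and are mostly active throughout the cycle, went both ways, with 3 of 12 higher and 3 lower in stretched bottom than in stretched top cells, against the same 9.05% and 17.9% of all genes. H2AFZ (H2A.Z) was at 2643 CPM in stretched bottom, 1605 in stretched top and 1603 in not stretched top cells, and H2AFX (H2A.X) at 153, 82.3 and 102 CPM. The variant linker histone H1FX was lower, at 54.9 CPM against 150 and 169. H1F0, a linker histone of resting cells, was at 79.6 CPM against 150 and 138. H3F3A, which encodes H3.3, was at 893, 907 and 849 CPM. In the same comparison 15 of 43 S genes and 23 of 54 G2/M genes were higher and 0 of either lower, where 9.05% and 17.9% of all genes were. Between stretched top and not stretched top cells none of these lists held a gene past 1.5-fold.

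Markers of other cells that could pass the sort were summed beside these results. Endothelial markers stood at 129 CPM in stretched bottom, 105 in stretched top and 129 in not stretched top cells, with 0, 2 and 1 of 12 at zero. EGFL7 made up most of these sums, at 118, 101 and 123 CPM, so they say little of the other markers. Of 7 at the minimum, 5 were higher in stretched bottom cells than in either top library: PECAM1, VWF, ERG, EMCN and CLEC14A. All 5 reached 1 CPM through the stretched bottom library alone. Over all genes that did so against stretched top, 242 of 295 were higher. EGFL7 and ESAM, at the minimum in every library, did not reach 1.5-fold either way. The median log2 ratios of the 7 were 1.47 over stretched top and 1.45 over not stretched top. CLEC14A was at 1.30 CPM in stretched bottom and at 0 in both top libraries. Below the minimum, CLDN5 was at 0.770 CPM in stretched bottom, 0 in stretched top and 0.0047 in not stretched top cells. In the same order, CDH5 was at 0.744, 0.0569 and 0.0329 CPM, and TIE1 at 0.574, 0.0427 and 0.0894. TEK was at 0.313, 0.204 and 0.235 CPM, and KDR at 0.1435, 0.0712 and 0.1365. Fibroblast markers stood at 4.54, 5.81 and 8.96 CPM, with 2, 1 and 1 of 10 at zero, and leukocyte markers at 5.35, 6.78 and 7.51 CPM, with 2, 0 and 0 of 10 at zero. Epithelial markers stood at 5182, 4810 and 4843 CPM, with median log2 ratios of 0.03 over stretched top and -0.04 over not stretched top, and the 4 lower ones named above. The part of such cells in the histone differences was not tested.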

How the data were processed

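The deposited matrices hold whole-number counts of UMIs per gene and barcode, which the authors made with Cell Ranger 7.0.0, per the file headers, on hg38, per the submitters' processing notes; the annotation release is not given in the sources used here. Counts were summed per gene over a library's kept cells and scaled by their total (CPM). A pair was compared on genes at 1 CPM or more in one of the 2, by log2 of CPM with 0.1 added, and 1.5-fold was the line for a call, in place of a test. Depth is given with the results; 3 counts, the limit that a count of 0 allows, equal 0.0391 CPM in stretched bottom, 0.0142 in stretched top and 0.0141 in not stretched top cells. Fold intervals are exact conditional binomial and CPM intervals exact Poisson, at 95%. Doublets were not called. The members and gene lists were chosen with earlier results of these data known. Named members are the 10 with the most UMIs, the first of each family, and the 3 largest and 3 smallest ratios of each comparison and of S over G1; others were named after their values were seen. Phases were scored with scanpy 1.11.5 from 43 S and 54 G2/M genes on cells thinned to 3000 UMIs; 242 stretched bottom, 1205 stretched top and 1507 not stretched top cells were too shallow. Python 3.11.15, numpy 2.4.6, scipy 1.17.1, pandas 2.3.3, and edgeR 4.0.16 in R 4.3.3 (TMM only) were used. Alternatives were the cell filter, scaling, cell and phase weights, thinning, the minimum, the added CPM and the fold; cells of 20000 to 60000 UMIs, and APOA1 cells left out, were added after seeing the data. Tested on simulated counts for stretched bottom over stretched top (12515 genes), 70 of 70 genes changed by 2-fold and 0 of 60 changed by 1.25-fold passed the line. The simulated counts held counting error only, so this checks the calculation and says nothing of differences between chips.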

Additional observations from a re-analysis of the deposited data

Results flagged for a closer look

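Barcodes left out by the cell filter also held histone UMIs: 280.55 CPM in the stretched bottom and 240.19 CPM in the stretched top library, above the 186 CPM in the not stretched top library, and below the 1084, 539 and 489 CPM of kept cells.

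In S over G1 cells, some log2 ratios had one sign in the stretched bottom library and the other in both top libraries; these differences were not tested. HIST1H2BN was at 0.20 in stretched bottom, -0.42 in stretched top and -0.49 in not stretched top cells. HIST2H2AA4 was at -0.12, 0.83 and 1.55 in the same order, and HIST1H4E at -0.28, 0.65 and 0.21. The H2B family was at 0.11 in stretched bottom cells and below 0 in both top libraries, but its ratios of 1.08 (0.986 to 1.18) in stretched bottom and 0.999 (0.935 to 1.07) in not stretched top cells have intervals that include 1, so these 2 signs are not fixed at this depth.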

How the results depend on the processing

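No paired analysis was possible because each group is 1 library, and leaving out a replicate was not possible for the same reason. Over all alternatives, 273 of the family ratios, counted once per alternative, stayed on the same side of 1.5-fold, 12 became weaker and 3 stronger. Ratios under 1.5-fold could change sign and still count as the same. The log2 ratio of H1 in stretched top over not stretched top ranged from -0.24 to 0.07. That of H2B in S over G1 cells of the not stretched top library ranged from -0.15 to 0.08. The log2 ratio of stretched bottom over stretched top ranged from 0.46 to 1.10 for the sum, 1.22 to 1.75 for H3 and 0.84 to 1.04 for H2B. In cells of 20000 to 60000 UMIs it was 0.46 for the sum, 0.42 for H1 and 0.31 for H4, each under 1.5-fold. H1 was also under it with the stricter filter (0.47), library totals that leave out MT- and ribosomal genes (0.49), equal cell weights (0.51) and equal phase weights (0.48), as was H2A with those totals (0.57) and equal cell weights (0.57). Over not stretched top, H1 passed it with TMM (0.72), median of ratios (0.76) and the highest 10% of cells left out (0.63). For S over G1, H1 was under it in stretched bottom cells from thinned CPM (0.43) and in stretched top cells with equal cell weights (0.52) and thinned CPM (0.48).

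Counts of genes moved mainly with the minimum. At 10 CPM, 11 were higher over stretched top and 12 over not stretched top; with no minimum, 5 were lower in each. Genes lower in stretched bottom were 2 over each top library at 20000 to 60000 UMIs, and over not stretched top 2 with the totals above and 1 from thinned CPM. For stretched top over not stretched top, where 1 gene was higher, TMM and median of ratios gave 5, the totals above 2 (and 2 lower), equal cell weights 2, the highest 10% of cells left out 3 and 20000 to 60000 UMIs 3, whereas 1 CPM added, a minimum of 10 CPM and a 2-fold line gave 0; equal phase weights gave 1 lower and no minimum 2. In S over G1 at 10 CPM, 7 were higher and 2 lower in stretched bottom, 3 and 1 in stretched top, and 5 and 1 in not stretched top cells; with no minimum, 34 and 30 were higher in the first pair, and 5 lower in the last. Thinning to 2000 UMIs gave 68.6%, 49.4% and 45.4% of cells with a histone UMI, and to 5000, 88.1%, 75.0% and 70.01%. From thinned CPM, 3 ratios of named genes were counted as reversed in sign: HIST1H3E over not stretched top (-0.69) and in S over G1 of stretched bottom (0.0072), and HIST1H4A in S over G1 of stretched bottom (-0.39). The causes were not tested. Depth limits the 23 genes under 1 CPM, and 1 library a group limits every difference to these libraries.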

Other observations

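One not stretched top cell held 233 HIST1H1C UMIs of its 13949, with 13 of HIST1H4C. This was 1.64% of the gene's UMIs in that library. The highest count in a single cell was 113 (of 87286 UMIs) in the stretched bottom and 64 (of 24116 UMIs) in the stretched top library.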
